A study of Homo sapiens with 10 samples.

Results

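The 10 genes described here carry glucose into the cell and break it down to lactate: the transporter gene SLC2A1, the hexokinase genes HK1 and HK2, and PFKL, ALDOA, GAPDH, PGK1, ENO1, PKM and LDHA. They were taken by their symbols from a table of 32738 genes, where each symbol occurred once. The rule names them by symbol and uses no measured value. Counts came from HepG2, a human hepatoma cell line, grown in high-glucose medium with serum and held for 17 h either in plain growth medium (control) or in medium with 2 µg/ml tunicamycin. Tunicamycin blocks the first step of N-linked glycosylation and causes ER stress. Each condition had 5 libraries, from 5 replicate experiments done on different days, and replicate numbers were taken to pair a control with a tunicamycin library. The libraries were made from mRNA 3′ ends, so the count of a transcript does not grow with its length, and CPM (counts scaled to library size) can be set side by side between genes as a rough measure of transcript number.

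Glucose enters cells through facilitative transporters of the SLC2A (GLUT) family and is trapped by hexokinases as glucose 6-phosphate. Phosphofructokinase commits the sugar to glycolysis, aldolase splits it, and the lower enzymes from GAPDH to pyruvate kinase recover ATP before lactate dehydrogenase regenerates NAD. Hepatocytes take up glucose mainly through GLUT2 (SLC2A2), while hepatoma cells are known for GLUT1 (SLC2A1), HK2 and the M forms of pyruvate kinase. Several of these genes are textbook targets of hypoxia-inducible factors and MYC, and GAPDH and PGK1 are in common use as reference genes.

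Library totals ran from 4242538 to 4888292 counts in control cells and from 2234682 to 5029864 in tunicamycin cells, where replicates 4 and 5 had the lowest totals (3567316 and 2234682 counts). Mitochondrial transcripts took 22.7% to 25.2% of control counts and 18.3% to 28.8% of tunicamycin counts. All 10 genes of an ER stress list were called higher, beside 17.6% of all genes tested. HSPA5, the ER chaperone BiP, went from 1934 ± 128 to 15158 ± 1009.9 CPM (SD, n = 5 each). ATF3 had the smallest log2 fold change of the list (0.71). Its levels overlapped, at 3.68 to 7.81 CPM in control and 6.93 to 8.86 CPM in tunicamycin libraries. Each of 10 hepatocyte and HepG2 markers was present, with a summed level of 15044 to 19356 CPM in control and 12108 to 13595 CPM in tunicamycin libraries. Of 12 markers of other cell types 11 were in the table, summing to 12.8 to 18.9 CPM in control and 10.2 to 17.5 CPM in tunicamycin libraries, and 7 of them had at most 3 counts over all libraries. Only 2 of them, CD68 and NES, had enough counts to be tested. CD68, a macrophage marker, was called lower (log2 fold change -0.83), where 16.6% of all genes tested were lower. Its levels overlapped, at 3.81 to 8.08 CPM in control and 2.31 to 5.98 CPM in tunicamycin libraries. In bulk RNA, fewer cells with a transcript and less of it per cell cannot be told apart.

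With tunicamycin SLC2A1 rose 1.99-fold and HK2 1.72-fold, PKM was called lower at 0.812-fold, and PFKL, ALDOA, GAPDH, PGK1, ENO1 and LDHA did not pass the test. HK1 had too few counts to be tested. With edgeR's quasi-likelihood test and an adjusted p threshold of 0.05, 2 of the 9 tested genes were thus called higher and 1 was called lower, where 17.6% of the 12733 genes tested were higher, 16.6% lower and 34.2% called in either direction. The share of the 9 genes that was called is thus near that of all genes. The levels of 2 of the 9 genes, SLC2A1 and HK2, did not overlap between the conditions, against 23.5% of all genes tested. The median log2 fold change of the 9 genes was -0.12 and that of all genes tested was -0.0033. Scaling by library size alone left 2 higher and 1 lower, although over all genes it moved the share of higher among called genes from 51.4% to 40.8%.

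SLC2A1 encodes GLUT1, the transporter of basal glucose uptake in most cells. It had 175, 195, 230.4, 283 and 264 CPM in control replicates 1 to 5 and 432, 439.7, 483, 476 and 453 CPM in tunicamycin replicates 1 to 5. Every tunicamycin library lay above every control library, and the control libraries were the more spread out, with a coefficient of variation of 19.7% against 4.85%. The mean went from 229.7 ± 45.3 to 457 ± 22.2 CPM (SD, n = 5 each), which is 0.99 on the log2 scale (SE 0.11, 95% interval 0.75 to 1.23, adjusted p = 1.8e-06 in edgeR's quasi-likelihood test). Fits that dropped a single library gave 0.91 to 1.09. An unnamed gene on the opposite strand overlaps the last exon of SLC2A1 in the GENCODE annotation, so its counts are uncertain if counting ignored the strand.

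Of the other glucose transporters, SLC2A2, SLC2A3 and SLC2A14 fell, SLC2A10 was called higher, and SLC2A4, SLC2A6 and SLC2A8 were not called. SLC2A2, the low-affinity GLUT2 of liver, had 174 to 189 CPM in control and 80.9 to 111 CPM in tunicamycin libraries, or -0.89 on the log2 scale (SE 0.09, adjusted p = 3.65e-07). SLC2A3, the high-affinity GLUT3, was more abundant than SLC2A1 and SLC2A2 in control libraries, with 303, 338, 369, 354 and 334 CPM in replicates 1 to 5. In tunicamycin replicates 1 to 5 it had 134, 132, 143, 113 and 115 CPM, or -1.41 on the log2 scale (SE 0.09, adjusted p = 1.01e-09 in edgeR's quasi-likelihood test). Neither gene overlapped between the conditions. SLC2A14, a near-identical copy of SLC2A3, was also lower (-0.78, adjusted p = 0.00555), and reads could be split between the pair. This call was lost after thinning all libraries to the smallest total (adjusted p = 0.289). SLC2A10 (GLUT10) was low, at 3.07 ± 0.929 CPM in control, and higher with tunicamycin (0.95, adjusted p = 0.0155), but thinning removed the call (adjusted p = 0.25), as did leaving out tunicamycin replicate 3 (adjusted p = 0.0538) or replicates 4 and 5 together (adjusted p = 0.0571). SLC2A8, an intracellular transporter at 452 ± 40.4 CPM in control, had a log2 fold change of -0.09 (95% interval -0.27 to 0.10).

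SLC2A1 and SLC2A3 changed order, while SLC2A2 stayed below SLC2A1 in all 10 libraries. The ratio of SLC2A1 to SLC2A3 counts was 0.58, 0.577, 0.624, 0.8 and 0.792 in control replicates 1 to 5 and 3.22, 3.33, 3.37, 4.22 and 3.95 in the tunicamycin libraries of the same numbers. SLC2A3 was thus ahead in all 5 control libraries and SLC2A1 in all 5 tunicamycin libraries. The ratio of SLC2A1 to SLC2A2 went from between 1.01 and 1.57 to between 3.97 and 5.59. The log2 ratios differed by 2.43 and 1.92, higher in 5 of 5 pairs each (two-sided exact permutation test, p = 0.00794, below which 5 against 5 libraries cannot go, adjusted p = 0.0132 over 5 ratios). SLC2A1 rose and SLC2A2 and SLC2A3 fell without overlap, so both ratios had to reach this floor. The permutation test thus adds nothing to the values of the single genes. This test does not use the pairing, and the paired exact permutation test by 5 sign flips did not pass for either ratio (p = 0.0625, the smallest it allows, adjusted p = 0.0781). Of the counts of SLC2A1, SLC2A2 and SLC2A3, SLC2A1 took 30.3% ± 3.66 in control and 67% ± 2.7 in tunicamycin libraries (SD, n = 5 each). Their summed level was 752.7 ± 66.5 CPM in control and 683 ± 29.3 CPM in tunicamycin libraries, with overlapping ranges of 652 to 818 and 649 to 729 CPM. Among 10 hepatocyte and HepG2 markers, 1 was higher and 5 were lower, beside 17.6% and 16.6% of all genes tested. FOXA2 rose, APOA1, APOB, TTR, TF and FGB fell, and ALB, AFP, SERPINA1 and HNF4A were not called. These markers were added after their values were seen, and their part in the result was not tested.

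HK2 encodes the inducible hexokinase that binds mitochondria. It had 25.2, 38, 50.9, 53.5 and 42.6 CPM in control replicates 1 to 5 and 55.7, 60.7, 80.2, 99.7 and 65.1 CPM in tunicamycin replicates 1 to 5. The conditions did not overlap, but the highest control library (53.5 CPM) came close to the lowest tunicamycin library (55.7 CPM). On the log2 scale it rose by 0.78 (SE 0.18, 95% interval 0.40 to 1.15, adjusted p = 0.00225 in edgeR's quasi-likelihood test), and by 0.64 to 0.89 in fits that dropped a single library. No exon of another gene overlaps HK2 in GENCODE.

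HK1, the ubiquitous hexokinase, gave 1 count over all 10 libraries. That count was in control replicate 5. A count of 0, as in every other library, allows up to 3 counts, or 0.596 CPM in the deepest and 1.34 CPM in the shallowest on unscaled totals. A response of HK1 was not detectable in these counts. HK3 was listed at 0 in every library. Another hexokinase, HKDC1, lies upstream of HK1 on the same strand of chromosome 10. It exceeded HK2 in all 10 libraries, with 46.5, 70.6, 75.3, 89.9 and 95 CPM in control replicates 1 to 5. Its levels in tunicamycin replicates 1 to 5 were 173, 195, 201, 200.4 and 209.8 CPM, far above every control library. Its log2 fold change, 1.38 (SE 0.14, adjusted p = 3.68e-07 in edgeR's quasi-likelihood test), was the largest increase among the tested genes of the transporter and enzyme lists. HK2 and HKDC1 together had 118 ± 28.8 CPM in control and 268 ± 26.9 CPM in tunicamycin libraries (SD, n = 5 each).

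The promoters of the 2 hexokinase genes that rose are shown with that of PGK1, which was not called, because hypoxia-inducible factors bind glycolytic promoters at the letters ACGTG. Each sequence is the 250 bases before the RefSeq start site on GRCh38.p14, 5′ to 3′ along the gene's strand, and capitals mark ACGTG or its reverse complement CACGT. HK2 lies at chr2:74833877-74834126, HKDC1 at chr10:69220082-69220331 and PGK1 at chrX:78103998-78104247, all on the plus strand.
HK2: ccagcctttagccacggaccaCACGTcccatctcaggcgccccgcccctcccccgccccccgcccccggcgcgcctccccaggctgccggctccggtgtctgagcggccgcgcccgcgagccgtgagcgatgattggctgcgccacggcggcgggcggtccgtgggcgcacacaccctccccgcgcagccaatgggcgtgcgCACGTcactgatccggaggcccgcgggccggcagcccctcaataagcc
HKDC1: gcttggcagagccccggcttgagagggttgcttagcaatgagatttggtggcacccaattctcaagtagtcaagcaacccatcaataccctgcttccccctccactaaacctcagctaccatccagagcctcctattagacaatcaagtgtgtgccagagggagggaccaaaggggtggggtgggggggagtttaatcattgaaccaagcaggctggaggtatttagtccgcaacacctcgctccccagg
PGK1: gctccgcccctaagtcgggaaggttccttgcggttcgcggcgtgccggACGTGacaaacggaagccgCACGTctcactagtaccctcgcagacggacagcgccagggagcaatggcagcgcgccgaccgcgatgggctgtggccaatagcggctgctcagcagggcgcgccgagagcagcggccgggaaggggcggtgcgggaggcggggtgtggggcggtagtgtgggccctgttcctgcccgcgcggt
HK2 held the letters 229 and 48 bases before its start, PGK1 held them 202 and 183 bases before, and the HKDC1 window did not hold them.

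Over the windows of all 10 genes, ACGTG was found on either strand in 5 (HK2, ALDOA, GAPDH, PGK1 and LDHA), against 18.5% of 35116 RefSeq windows of that length. The 10 windows were 68.4% to 78% G and C, and the shares over all windows were not matched for base content. An excess of these letters was thus not tested. The 5 matches in LDHA include both strands of 2 E-boxes (CACGTG), the letters that MYC and ChREBP bind, and GAPDH held another E-box, against 6.34% of all windows. The variant GCGTG was in 5 of the 10 windows and in 32.2% of all. None of the 10 windows held the letters of ERSE (in 0.074% of all windows), ERSE-II (0.0513%), UPRE (TGACGTGG, 0.612%), a C/EBP-ATF element core (TGATGNAA, 3.14%) or an AP-1 site (TGANTCA, 6.57%). Of the genes with ACGTG, HK2 was the one called, and the SLC2A1 window held none of these letters. The windows of HK1 and GAPDH end at start sites 217 and 747 bases away from the start of the main annotated transcript. The other 8 end at that start. Annotated exons of the gene itself lie in the windows of HK1 and GAPDH, and in those of SLC2A1, PFKL, ENO1, PKM and LDHA. A match in such a window may thus lie inside the gene.

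PFKL encodes the liver form of phosphofructokinase, the committing step. It had 38.5 to 57.9 CPM in control and 35.9 to 44.5 CPM in tunicamycin libraries, with a log2 fold change of -0.14 (95% interval -0.40 to 0.12, adjusted p = 0.403 in edgeR's quasi-likelihood test). The muscle and platelet forms, PFKM and PFKP, had 18 and 4 counts over all libraries and were not tested. ALDOA, the main aldolase, had 307, 267, 226, 214 and 205 CPM in control replicates 1 to 5 and 203, 197, 199, 318 and 253 CPM in tunicamycin replicates 1 to 5. Its log2 fold change was -0.06 (95% interval -0.35 to 0.22), and the sign was not stable, at 0.03 without control replicate 1 and -0.28 without tunicamycin replicates 4 and 5. A gene on the same strand shares the last exon of ALDOA in GENCODE. ALDOC, the brain form of aldolase, whose last exon overlaps a gene on the opposite strand, was far lower in level and fell from 19.4 ± 2.2 to 7.5 ± 1.11 CPM (log2 fold change -1.38, adjusted p = 1.82e-06). The ratio of ALDOA to ALDOC counts therefore rose from between 10.7 and 14.3 to between 22.5 and 47.1 (two-sided exact permutation test, p = 0.00794, adjusted p = 0.0132 over 5 ratios, and adjusted p = 0.0781 in the paired test).

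GAPDH was the most abundant of the 10 genes, and its tunicamycin libraries fell into separate levels. It had 1872, 1948, 1261, 1745 and 1564 CPM in control replicates 1 to 5 and 1722, 1638, 1555, 1025 and 994 CPM in tunicamycin replicates 1 to 5. Tunicamycin replicates 4 and 5, the libraries with the lowest totals, lay below all controls, whereas replicates 1 to 3 lay inside the control range. The log2 fold change was -0.27 (95% interval -0.59 to 0.04, adjusted p = 0.167 in edgeR's quasi-likelihood test), and -0.03 without tunicamycin replicates 4 and 5. With the replicate block it was -0.30 and passed the test in edgeR (adjusted p = 0.0351) but not in DESeq2 (adjusted p = 0.22). GENCODE lists 65 numbered pseudogenes of GAPDH, more than of any other of the 10 genes, and reads that match several copies may have been lost or split. An unnamed gene on the opposite strand also overlaps the last exon of GAPDH.

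PGK1, which makes the first ATP of the lower pathway, had 131 to 172 CPM in control and 134 to 181 CPM in tunicamycin libraries. The log2 fold change of 0.13 had a 95% interval of -0.07 to 0.33. ENO1, the main enolase, was the second most abundant gene, with 918 ± 73.5 CPM in control and 846 ± 93.1 CPM in tunicamycin libraries (SD, n = 5 each). It was lower in 5 of 5 pairs, by log2 ratios between -0.25 and -0.07, but its log2 fold change of -0.12 (95% interval -0.31 to 0.07) did not pass the test. GENCODE places exons of ATP7A on the same strand over PGK1, and of ENO1-AS1 on the other strand over ENO1. The minor enolases ENO2, typical of neurons, and ENO3, typical of muscle, were called lower (-0.41 and -0.59, adjusted p = 0.0145 and 0.00714 in edgeR's quasi-likelihood test), the latter not after thinning (-0.18, adjusted p = 0.702). The ENO2 call was lost in 1 of the 10 fits that dropped a single library (adjusted p = 0.056 in the same test). The ENO1 to ENO2 ratio had a log2 difference of 0.28, higher in 4 of 5 pairs (two-sided exact permutation test, p = 0.19, adjusted p = 0.214).

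PKM encodes the M forms of pyruvate kinase, and a 3′ count does not tell PKM1 from PKM2. It had 484, 333, 292, 337 and 344 CPM in control replicates 1 to 5 and 303, 258, 293, 314 and 286 CPM in tunicamycin replicates 1 to 5. The conditions overlapped, and control replicate 1 stood far above the other controls. On the log2 scale the difference was -0.30 (SE 0.11, adjusted p = 0.0474 in edgeR's quasi-likelihood test). It became -0.17 without control replicate 1 (adjusted p = 0.143), and 8 of the 10 fits that dropped a single library lost the call. PKLR, the liver form, was scarce at 8.07 ± 1.23 CPM in control and had a log2 fold change of -0.53 (adjusted p = 0.0621). The PKM to PKLR ratio differed by 0.22 on the log2 scale, higher in 5 of 5 pairs (two-sided exact permutation test, p = 0.214, adjusted p = 0.214). In the paired exact permutation test its adjusted p was 0.0781, the same as for the ratios with SLC2A2, SLC2A3 and ALDOC.

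LDHA, which turns pyruvate into lactate, varied most among the control libraries. It had 139, 370.4, 276, 339 and 242 CPM in control replicates 1 to 5 and 206, 233, 257, 265 and 236 CPM in tunicamycin replicates 1 to 5. All tunicamycin levels lay inside the control range, and control replicate 1 was the lowest of all 10 libraries. The coefficient of variation was 33.1% in control and 9.65% in tunicamycin libraries. The log2 fold change was -0.19 (95% interval -0.56 to 0.18, adjusted p = 0.428 in edgeR's quasi-likelihood test). Without control replicate 1 it was -0.36 and passed the test (adjusted p = 0.0183). LDHB, the heart form, was listed at 0 in all libraries, and a gene on the same strand overlaps its last exon in GENCODE.

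Replicate pairs differed in how the enzymes that were not called moved. ALDOA was lower in pairs 1 to 3 (log2 ratios -0.59, -0.44 and -0.19) and higher in pairs 4 and 5 (0.57 and 0.30). GAPDH was at -0.77 in pair 4 and -0.65 in pair 5 but at 0.30 in pair 3. LDHA was higher in pair 1 alone, by 0.57. By contrast SLC2A1 ranged from 0.75 to 1.30 and HK2 from 0.61 to 1.14.

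The order of the levels changed at SLC2A1 and HK2. In control cells the means ran from GAPDH (1678 CPM) and ENO1 (918 CPM) through PKM (358 CPM), LDHA (273 CPM), ALDOA (244 CPM), SLC2A1 (229.7 CPM) and PGK1 (151 CPM) to PFKL (45.1 CPM) and HK2 (42 CPM). Neighbours from PKM to SLC2A1, and PFKL with HK2, overlapped in range. In tunicamycin cells SLC2A1 was the third, above PKM in 5 of 5 libraries where it had been below PKM in 5 of 5 controls. HK2 lay above PFKL in 5 of 5 tunicamycin and 2 of 5 control libraries. PKM with LDHA and LDHA with ALDOA still overlapped. All 10 genes together held 0.406% ± 0.0341 of the counts in control and 0.363% ± 0.05 in tunicamycin libraries (SD, n = 5 each), of which GAPDH and ENO1 made up 51.1% to 68.4% in any library.

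Among 29 other transporters and enzymes of the pathway, 15 were tested, 2 were higher and 7 lower, with a median log2 fold change of -0.32 (17.6% and 16.6% of all genes tested, as above). Beside those given above, TPI1, which interconverts the triose phosphates, fell from 234 ± 17.8 to 187 ± 10.3 CPM without overlap (-0.32, adjusted p = 0.00492 in edgeR's quasi-likelihood test). Thinning removed the call (adjusted p = 0.081), and an exon of SPSB2 on the opposite strand overlaps its last exon. GPI, the isomerase between hexokinase and phosphofructokinase, had a log2 fold change of -0.19 (adjusted p = 0.102), and an unnamed gene on the same strand overlaps its last exon. PGAM1 had 5.81 ± 2.65 CPM in control, and 13 numbered pseudogenes are listed for it, so its level is uncertain.

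**Figure D1:**
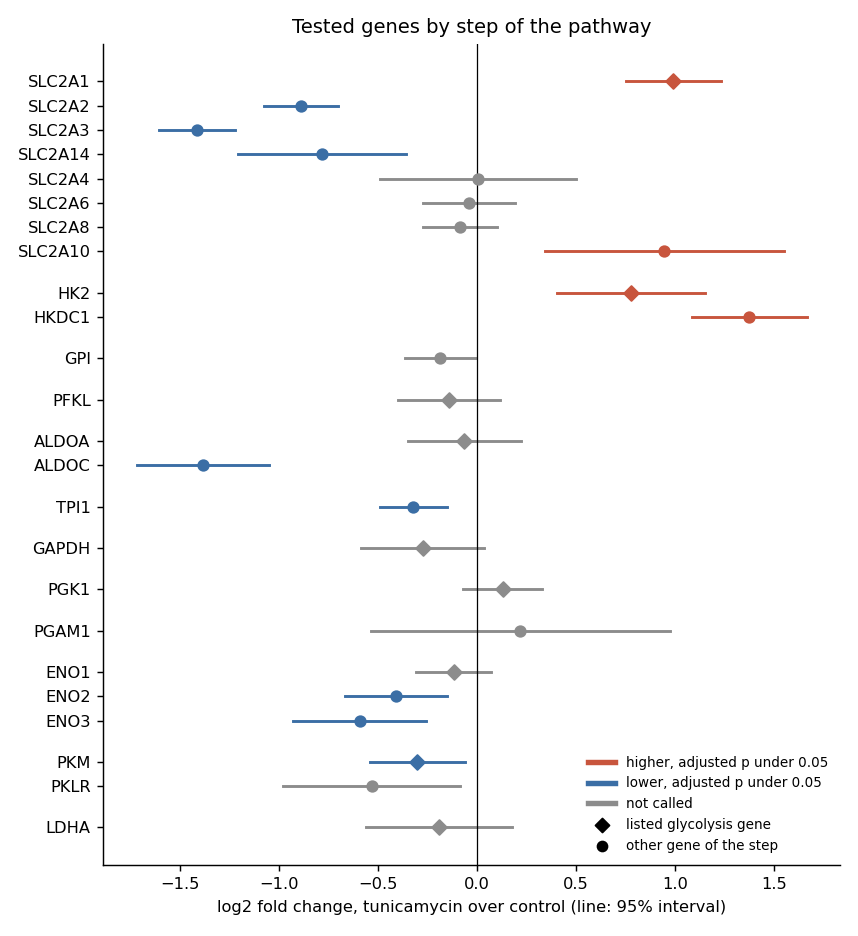
Log2 fold change with its 95% interval for 24 tested genes, ordered from transport at the top to lactate dehydrogenase at the bottom, with diamonds for the listed glycolysis genes and circles for other genes of a step. SLC2A1, SLC2A10, HK2 and HKDC1 are called higher (red), 8 genes are called lower (blue) and 12 are not called (grey).

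Downstream of pyruvate, 17 of 20 genes were tested, with 5 higher and 3 lower, beside 17.6% and 16.6% of all genes tested. SLC16A3, the lactate exporter MCT4, which shares its last exon with CSNK1D on the opposite strand, fell from 322 ± 23.7 to 234 ± 9.79 CPM (log2 fold change -0.46, adjusted p = 0.000223 in edgeR's quasi-likelihood test). SLC16A1, the transporter MCT1, had a log2 fold change of 0.07 (95% interval -0.10 to 0.25). BSG, the chaperone of both transporters, was called higher (0.46, adjusted p = 0.0182), but was at 0.20 without tunicamycin replicates 4 and 5 (adjusted p = 0.264). Of 5 tested subunits of the pyruvate dehydrogenase complex, PDHB (0.56), PDHX (0.41) and DLD (0.47) were called higher, PDHX not with library size only (adjusted p = 0.0588), while PDHA1 (0.10, adjusted p = 0.334) and DLAT (0.18, adjusted p = 0.255) were not called. MPC1, a subunit of the mitochondrial pyruvate carrier, was lower (-0.49). PDPR, a regulatory subunit of pyruvate dehydrogenase phosphatase, was also lower (-0.50). PDK1, a kinase that inactivates the complex, was higher (0.46, adjusted p = 0.0377) a call that 6 of the 10 fits without a single library did not keep, nor did scaling by library size alone (adjusted p = 0.0905).

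Of 15 regulators, 14 were tested, 7 were higher and 1 lower, with a median log2 fold change of 0.67, beside 17.6% and 16.6% called over all genes tested. TXNIP and ARRDC4 encode arrestins that restrain glucose uptake and are classical targets of the glucose sensor ChREBP. TXNIP had 58.4 to 79.2 CPM in control and 100 to 135 CPM in tunicamycin libraries (0.83, SE 0.11, adjusted p = 5.78e-06 in edgeR's quasi-likelihood test). ARRDC4 rose from 1.23 ± 0.43 to 7.25 ± 3.72 CPM (2.43, SE 0.39). MLXIPL, which encodes ChREBP, fell from 427 ± 77.5 to 222 ± 54.9 CPM (-0.95, adjusted p = 5.14e-05). Its partner MLX, overlapped at its last exon by PSMC3IP on the opposite strand, was called higher (1.15), but was at 94.4 and 67.9 CPM in tunicamycin replicates 4 and 5 against 24.2 to 27 CPM in the others, and without them the log2 fold change was 0.31 (adjusted p = 0.0982). MYC, an activator of glycolytic genes, rose from 6.72 ± 3.02 to 29.2 ± 12.6 CPM (2.07, adjusted p = 3.89e-05). TIGAR, a phosphatase that lowers fructose 2,6-bisphosphate and is listed under the older symbol C12orf5, rose from 5.29 ± 3.27 to 13 ± 3.38 CPM, although a same-strand gene overlaps its last exon. OGT, which attaches GlcNAc to proteins, and GCKR were also higher (1.12 and 0.50). The GCKR call was lost in 1 of 11 alternatives to the main fit, and that of OGT was kept.

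In the pentose phosphate pathway, the branch that leaves glycolysis at glucose 6-phosphate, 9 of 10 genes were tested, with RPE higher (0.87) and TKT (-0.42), H6PD (-0.37) and SHPK (-0.72) lower, beside 17.6% and 16.6% of all genes tested. All 3 lower calls were lost in at least 1 alternative, TKT and SHPK without tunicamycin replicates 4 and 5 (adjusted p = 0.0697 and 0.0736) and H6PD after thinning (adjusted p = 0.0759). Of 24 hypoxia-inducible factors and hypoxia targets outside glycolysis, 21 were tested, 3 were higher and 3 lower, and the median log2 fold change was 0.13. These counts are near the 17.6% and 16.6% of all genes tested. VEGFA (0.80), KDM3A (0.69) and MXI1 (0.60) were higher, whereas HIF1A (-0.36), PLOD1 (-0.35) and NDRG1 (-0.85) were lower. After thinning KDM3A was at 0.16 (adjusted p = 0.648), and the calls of MXI1 (adjusted p = 0.152) and PLOD1 (adjusted p = 0.158) were lost. Single-library fits lost the call of HIF1A without control replicate 3 or tunicamycin replicate 2 or 5, and that of MXI1 without control replicate 3 or 5 or tunicamycin replicate 1.

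Over all 10 libraries the genes whose levels were most like those of SLC2A1 were TMED10, ATP2A2, PRNP, FAM204A and CLPTM1L, among 9548 genes with a mean of at least 5 CPM. Pearson's r of log2(CPM + 1) was 0.988 to 0.994 over 10 libraries, which share the treatment, so that this is a description of the levels. TMED10 is a cargo receptor between ER and Golgi and ATP2A2 the ER calcium pump. Their log2 fold changes were 0.64 and 1.77, against 0.99 for SLC2A1.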

How the data were processed

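HepG2 cells were untreated or treated with tunicamycin, and 250 ng of total RNA per sample went into QuantSeq 3′ libraries. Raw counts per gene were deposited by the authors, who ran the nf-core RNA-Seq pipeline at its default settings with hg19 and Ensembl transcript definitions. The aligner, the counting program and the strand setting are not named in the sources used here. All 10 sample columns were matched to their labels by name.

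Genes were filtered with filterByExpr (minimum count 2, minimum total 10, groups by condition), which left 12733. Library sizes were scaled by TMM, and CPM were computed on the scaled sizes. Condition was the only term of the quasi-likelihood fit in edgeR 4.0.16 under R 4.3.3, with Benjamini-Hochberg adjustment over all genes tested at 0.05. The standard error is the absolute log2 fold change divided by the square root of F, and 95% intervals use the test's degrees of freedom. Ratios of 2 genes within a library used a pseudocount of 0.5, and 5 of 10 planned ratios had both genes tested. Isozyme shares and ratios do not depend on library scaling.

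The series text gives the replicates as experiments on separate days, so numbers were taken to pair libraries. Deviations from the condition means correlated within pairs at 0.369, 0.0122, 0.0607, 0.174 and 0.155 (pairs 1 to 5, 9548 genes). Between libraries of different numbers they ran from -0.3485 (control 4 with tunicamycin 1) to 0.1756 (control 2 with tunicamycin 1). Only pair 1 lay above that range. Alternatives were DESeq2 1.42.0, its size factors, library size only, no filter, default filter minimums, a replicate block in both tools, thinning to 2234682 counts, removal of mitochondrial genes and leaving out each library. Another 2, leaving out tunicamycin replicates 4 and 5 or replicate 1 of both conditions, were added after the data were seen. On simulated counts for 12572 genes, 93% of 200 genes changed by 2-fold to 4-fold were called in the right direction. Of the unchanged genes, 10 were called. Changes under 2-fold, as in all 9 tested genes, were not simulated, so this share does not apply to them.

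The genes and lists were chosen with earlier results of these data known. All 10 genes of the pathway are named, with the genes of other lists at an adjusted p under 0.05 (at most the 6 largest changes per list) and the isozymes used in ratios. TPI1, GPI, PGAM1, ENO3, SLC2A4, SLC2A6, SLC2A8, SLC16A1, SLC16A3, PDHX, PDHA1, DLAT, TXNIP, GCKR, the markers and the summed levels were added after their values were seen. Promoters come from RefSeq on GRCh38.p14 and overlaps from GENCODE on GRCh38 by Ensembl identifier, and no hg19 coordinate was used. Promoter windows were found for all 10 genes. Some genes of the lists are not reported here.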

Additional observations from a re-analysis of the deposited data

Results flagged for a closer look

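Among 120 sets of 5 same-condition values, 5 held a value set apart from the rest by a wide gap, and about 6.0 would by chance. These sets did not cover all listed genes, so the count holds only for the sets examined. PKM had 484 CPM in control replicate 1, where the others had 292 to 344 CPM. PDHX had 25.6 CPM in control replicate 4 (others 19.3 to 20.5 CPM), and DLD had 36.9 CPM in the same library (others 48.5 to 51.4 CPM). In tunicamycin replicate 4, MLXIPL had 316 CPM (others 174 to 214 CPM) and SHPK had 2.83 CPM (others 8.78 to 11 CPM). Not among these 5, EGLN2 of the hypoxia list had 106 CPM in the same library (others 9.54 to 15.3 CPM). ASNS of the ER stress list had 148 CPM in control replicate 5 (others 105 to 113 CPM). The cause of these values was not tested.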

How the results depend on the processing

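SLC2A1 and HK2 kept their direction and their call in all 21 alternatives, with log2 fold changes from 0.91 to 1.09 and from 0.64 to 0.89, so that 2 genes were higher in each. The count of lower genes was 1 and became 2 with the replicate block in edgeR, where GAPDH joined PKM, 0 after thinning to the smallest library and 0 without tunicamycin replicates 4 and 5. Fits without a single library gave 0 to 1. Without control replicate 1, and without replicate 1 of both conditions, the 1 lower gene was LDHA in place of PKM. The block changed no other call among the 9 genes. ALDOA changed sign without control replicate 1 or tunicamycin replicate 2 (-0.20 to 0.032 over fits without a library) and without replicate 1 of both conditions (0.087). PGAM1 did so without tunicamycin replicate 5 (-0.14 to 0.52 over such fits) and without tunicamycin replicates 4 and 5 (-0.30), and SLC16A1 with library size only (-0.0090). Thinning left 5 called genes of 9 among the other enzymes and transporters, 2 of 4 in the pentose phosphate pathway and 3 of 6 among hypoxia genes. Without tunicamycin replicates 4 and 5 the pentose phosphate count was also 2. The ratios with SLC2A2, SLC2A3 and ALDOC kept their differences of 1.92, 2.43 and 1.29 under the replicate block, where an exact permutation test by 5 sign flips cannot go below p = 0.0625 and gave an adjusted p of 0.0781. The PKM to PKLR ratio had the same adjusted p in that paired test. Without mitochondrial genes in the total, the 10 genes held 0.533% of control and 0.47% of tunicamycin counts. Over all genes, 3244 to 4811 were called under these alternatives against 4353.

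HK1, PFKM, PFKP and LDHB had too few counts to be compared, and the cause was not tested. P-values set the difference between conditions against the variation between these libraries, and those of the main fit do not use the pairing. A 3′ count measures transcript levels and says nothing of splice forms, protein or flux, and intervals for 0 counts cover counting error only.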
